A study of Mus musculus with 10 samples.

Results

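The 9 genes described here encode components and receptors of the complement system: C1qa, C1qb, C1qc, C3, C4b, Cfb, Cfp, C3ar1 and C5ar1. They were chosen by name, and all 9 were matched by Ensembl identifier among the 55357 genes of the deposited count tables. Complement is a cascade of secreted proteins that tags microbes, dying cells and debris for uptake and raises inflammatory signals. In the classical branch C1q, assembled from the chains A, B and C, binds its target and leads through C4 to cleavage of C3, the protein on which all branches converge. Factor B and properdin drive and stabilise the alternative branch, which amplifies C3 cleavage, and the released fragments C3a and C5a act on myeloid cells through the receptors C3AR1 and C5AR1. The liver makes most circulating C3, C4 and factor B, whereas tissue macrophages are a main source of C1q and leukocytes a main source of properdin.

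Poly(A) RNA was sequenced as 6 libraries of heart and 4 of cultured peritoneal macrophages. The heart libraries were all labelled Cd163-/- on a C57BL/6 background, and IL-10 (n = 3) or saline (n = 3). According to the design text, males aged 8 weeks had the aorta narrowed by surgery (transverse aortic constriction), and Cd163-/- mice were then given recombinant mouse interleukin-10 under the skin at 50 µg/kg/day between day 0 and day 27, on named days only, but the labels of single hearts do not mention an operation. The macrophages were Cd163-/- (n = 2) or wild type (n = 2), were collected 3 days after thioglycolate, an irritant that recruits them to the peritoneal cavity, were selected by adherence, and all spent 48 h in the synthetic glucocorticoid dexamethasone at 100 nM. No wild-type or sham-operated heart and no macrophage culture without dexamethasone was analysed here. A library is called a heart or a culture here, but the labels do not say whether replicates are different animals or cultures, and p-values therefore rest on a spread between libraries that may be purely technical.

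Library totals were 13.5 to 14.9 M counts in hearts and 16.7 to 18.6 M counts in macrophages (M for mega). Levels are CPM, counts per M counts of the library scaled by TMM, and levels of different genes are set against each other only as CPM per kb of annotated exon. Cd163, the targeted gene, had 9 and 14 counts in Cd163-/- macrophages, against 352 and 205 counts in wild-type macrophages. In the hearts labelled Cd163-/-, the gene still had 37, 43 and 34 counts after IL-10, against 45, 47 and 57 counts after saline. That is 2.39 to 3.15 CPM after IL-10 and 3.29 to 3.65 CPM after saline, above the 0.448 and 0.777 CPM of the Cd163-/- macrophages, and with no wild-type heart to set beside them the genotype of the heart libraries could not be checked and is given as labelled. All 7 macrophage markers read were present in the macrophage cultures, with means from 83.9 CPM (Cd14) to 16911 CPM (Lyz2) in Cd163-/- and from 72.6 CPM (Fcgr1) to 21004 CPM (Lyz2) in wild-type cultures, and the 5 cardiomyocyte markers summed to 20995 CPM or more in every heart. The 2 wild-type macrophage libraries stood further apart (53.0 per gene in a chi-square comparison of counts) than the 2 Cd163-/- libraries (20.9).

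By mean level per kb of exon, C1q transcripts were the most abundant of the group in every condition, and Cfb was the scarcest in hearts. In IL-10 hearts the mean levels per kb of exon were 126 CPM for C1qb, 117 for C1qa, 70.3 for C1qc, 29.5 for C3, 9.10 for Cfp, 7.66 for C5ar1, 5.15 for C3ar1, 3.95 for C4b and 0.00865 for Cfb. The order was the same in saline hearts, at 114, 108, 63.8, 26.5, 12.9, 6.93, 6.84, 4.31 and 0.121 CPM per kb. The means ± SD (n = 3) of C1qb and C1qa overlapped in both heart groups, as did those of C5ar1 and C3ar1. Those of Cfp and C5ar1 and of C3ar1 and C4b overlapped in the IL-10 hearts but not in the saline hearts.

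In Cd163-/- macrophages the order per kb was C1qb (1678 CPM), C1qa (931), C1qc (824), C3ar1 (292), C5ar1 (222), Cfp (189), C3 (108), C4b (1.88) and Cfb (0.265). Wild-type macrophages had C1qb (1123 CPM per kb), C1qa (516), C1qc (435), C3 (304), C5ar1 (275), Cfp (188), C3ar1 (141), Cfb (6.61) and C4b (1.76). By mean, C3 thus stood below both anaphylatoxin receptors in the knockout cells and above both in the wild-type cells. Among neighbours in the wild-type order, the means ± SD (n = 2 each) overlapped for C1qa and C1qc, C1qc and C3, C3 and C5ar1, and Cfb and C4b. In the knockout order only those of C5ar1 and Cfp did. Wild-type replicate 1 had C3 (257 CPM per kb) below C5ar1 (319). Wild-type replicate 2 had C3 (351 CPM per kb) above both C5ar1 (232) and C1qc (336). C4b was the only gene of the group with lower means in both macrophage groups (10.7 CPM in Cd163-/- and 10.0 CPM in wild type) than in both heart groups (22.5 CPM after IL-10 and 24.5 CPM after saline). Levels set across the tables compare separately prepared tables and were not tested.

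The promoter windows of members whose transcripts rose or stood higher in knockout macrophages, C1qb, C1qc and C3ar1, are shown beside that of C3, which fell there. RefSeq windows (GRCm38.p6) were matched for 6 of the 9 genes, and the 250 bases before the RefSeq start are given, 5′ to 3′ on the gene's own strand, which is the minus strand in each case. They lie at chr4:136886201-136886450 for C1qb, chr4:136892915-136893164 for C1qc, chr6:122856158-122856407 for C3ar1 and chr17:57228137-57228386 for C3. Capitals mark matches, on either strand, to any of 6 motifs: GAGGAA (core of the myeloid factor PU.1), TTGCNNAA (C/EBP), AGAACA (half-site of the glucocorticoid receptor), TTCNNNGAA (STAT), the interferon regulatory factor element and the NF-kappaB site.
C1qb: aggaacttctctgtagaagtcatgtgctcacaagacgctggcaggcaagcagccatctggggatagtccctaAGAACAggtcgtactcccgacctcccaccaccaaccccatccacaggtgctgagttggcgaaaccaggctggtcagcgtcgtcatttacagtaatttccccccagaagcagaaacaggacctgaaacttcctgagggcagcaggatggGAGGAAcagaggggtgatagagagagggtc
C1qc: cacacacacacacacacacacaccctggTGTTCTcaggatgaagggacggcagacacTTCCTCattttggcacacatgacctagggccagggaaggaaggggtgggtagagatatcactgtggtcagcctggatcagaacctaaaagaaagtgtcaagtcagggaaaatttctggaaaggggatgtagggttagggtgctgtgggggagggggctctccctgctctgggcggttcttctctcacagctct
C3ar1: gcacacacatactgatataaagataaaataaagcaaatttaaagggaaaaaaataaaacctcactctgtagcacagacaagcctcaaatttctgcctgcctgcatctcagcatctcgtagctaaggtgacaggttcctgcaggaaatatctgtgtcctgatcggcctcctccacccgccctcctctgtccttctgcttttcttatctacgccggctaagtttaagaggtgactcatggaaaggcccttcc
C3: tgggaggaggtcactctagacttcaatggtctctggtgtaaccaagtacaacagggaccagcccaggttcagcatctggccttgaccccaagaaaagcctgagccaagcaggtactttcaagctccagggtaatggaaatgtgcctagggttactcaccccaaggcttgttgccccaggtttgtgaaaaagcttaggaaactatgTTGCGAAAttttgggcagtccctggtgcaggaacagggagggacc
C1qb had GAGGAA 30 to 25 bases before its start and AGAACA 178 to 173 bases before it. C1qc had both motifs on the opposite strand, GAGGAA 193 to 188 and AGAACA 222 to 217 bases before its RefSeq start. In GENCODE C1qc begins at 136893065, inside this window, so distances from that start are shorter and part of the window lies in the annotated gene. Both matches lie before that start too. The C3 window held TTGCGAAA, a match to TTGCNNAA, 45 to 38 bases before the start, and C3ar1 held none of the 6. The matched windows of C5ar1 and Cfp, which were not called in macrophages and are not shown, also held none of the 6. No 2 matches overlapped. Of 32851 windows of the same length, 23.3% held GAGGAA, 16.1% AGAACA, 9.56% TTGCNNAA, 7.02% TTCNNNGAA, 2.98% the interferon regulatory factor element and 1.21% the NF-kappaB site. These matches describe letters in a window and were not tied to binding or to the measured levels.

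In Cd163-/- macrophages, transcripts of C1qa, C1qc and the C3a receptor gene C3ar1 rose relative to wild type, while those of C3 and of factor B (Cfb) fell. Thus 3 of the 9 genes were called higher and 2 lower (edgeR's quasi-likelihood test at a Benjamini-Hochberg adjusted p under 0.05), where 26.4% of the 13861 genes tested were called, 13.1% higher and 13.3% lower. Higher genes made up 49.6% of all calls, but 62.2% with upper-quartile scaling and 68.6% with library size alone, which shift the median log2 fold change of all genes to 0.13 and 0.19. The comparison sets cultures that lack Cd163 against those that carry it, all under dexamethasone. The 5 called genes were also those with an unadjusted p under 0.05, which 41.2% of all genes tested had. The median log2 fold change over the 9 genes was 0.10, against 0.01 over all genes tested. The groups did not overlap for 6 of the 9 genes, and 69.4% of all genes tested had groups that did not overlap, so with 2 libraries a group this count describes little. Without Cd163-/- replicate 1 none of the 9 genes was called, and without Cd163-/- replicate 2 only Cfb was. These fits leave 1 knockout library, which is assumed to vary like the wild-type pair.

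C1qa, on chromosome 4 from 136895917 to 136898803 (GRCm38 in GENCODE M21, as for all positions of genes), encodes the A chain of C1q. Its level was 967 and 969 CPM in Cd163-/- macrophages, against 657 and 417 CPM in wild-type macrophages. Both knockout libraries lay above both wild-type libraries, and the knockout pair was nearly level while the wild-type pair was spread. The log2 fold change was 0.85 (SE 0.24; edgeR's quasi-likelihood test, adjusted p = 0.0479). C1qc, on the same chromosome from 136889804 to 136893065, encodes the C chain. It had 1493 and 1691 CPM in Cd163-/- macrophages, against 1031 and 649 CPM in wild-type macrophages, again without overlap. Its log2 fold change was 0.92 (SE 0.26; edgeR's quasi-likelihood test, adjusted p = 0.0470). Both calls lay close to the threshold and were lost without either Cd163-/- library, at adjusted p from 0.172 to 0.208 (edgeR's quasi-likelihood test).

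C1qb, the B chain gene from 136880129 to 136886187, was at 1738 and 1914 CPM in Cd163-/- macrophages, against 1463 and 981 CPM in wild-type macrophages. The groups did not overlap, but the log2 fold change of 0.58 (SE 0.24) did not pass the test (edgeR's quasi-likelihood test, adjusted p = 0.129). Without wild-type replicate 1, the higher of that pair, it passed at a log2 fold change of 0.90 (adjusted p = 0.0066, edgeR's quasi-likelihood test). The 3 genes lie in the order C1qb, C1qc, C1qa on one strand. Together they held 0.453% and 0.479% of all counts in Cd163-/- macrophages, against 0.296% and 0.193% in wild-type macrophages.

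The chains were not in the same proportion in all libraries. Counted per base of exon, C1qb made up 48.4% and 49.3% of C1q transcripts in Cd163-/- macrophages, against 53.6% and 55.0% in wild-type macrophages. The share of C1qa was 28.2% and 26.1% in the knockout cells, against 25.2% and 24.5% in the wild-type cells, and that of C1qc was 23.4% and 24.5% in the knockout cells, against 21.3% and 20.5% in the wild-type cells. Each share was apart between the genotypes, as were the levels of 69.4% of all genes tested in macrophages. The shares are not independent, since they add up to the whole. For C1qa the knockout libraries differed more from each other than the nearest libraries of the genotypes did. In the hearts C1qb and C1qa were nearly level, with C1qb at 39.7%, 41.1% and 39.8% after IL-10 and 40.6%, 38.5% and 40.1% after saline, and C1qa at 37.0%, 36.2% and 38.6% after IL-10 and 36.7%, 38.4% and 38.3% after saline. The absolute shares depend on the annotated exon lengths (1040 bases for C1qa, 1088 for C1qb and 1931 for C1qc), which are the same for every library. The differences in share were not tested.

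C3, from 57203970 to 57228136 on chromosome 17, encodes the central protein of the cascade. Its level was 544 and 566 CPM in Cd163-/- macrophages, against 1323 and 1808 CPM in wild-type macrophages. Every wild-type library was above every knockout library, and the log2 fold change was -1.50 (SE 0.21; edgeR's quasi-likelihood test, adjusted p = 0.0065). The call was lost without Cd163-/- replicate 1 (adjusted p = 0.0879) and without Cd163-/- replicate 2 (adjusted p = 0.063, edgeR's quasi-likelihood test), while the log2 fold change stayed between -1.70 and -1.26 whichever library was left out. C3 and the C3a receptor gene therefore moved in opposite directions in the same cultures.

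Cfb, from 34856374 to 34862518 on chromosome 17, encodes factor B, the protease of the alternative C3 convertase. It was at 0.498 and 0.999 CPM in Cd163-/- macrophages, against 9.14 and 28.2 CPM in wild-type macrophages, from 10 and 18 counts in the knockout libraries, against 154 and 444 counts in the wild-type libraries. The groups did not overlap, and as a ratio the 2 wild-type libraries differed from each other more for this gene than for any other of the group. Its log2 fold change was -4.64 (SE 0.68; edgeR's quasi-likelihood test, adjusted p = 0.0072), and the call was lost without Cd163-/- replicate 1 (log2 fold change -4.21, adjusted p = 0.079, edgeR's quasi-likelihood test). With 1 library left out, the log2 fold change ran from -5.24 to -3.62. In the annotation 79.5% of the exon bases of Cfb are shared with the read-through gene Gm20547, which spans Cfb and C2 and had 0 counts in every library. How the counting treated reads in shared exons is not given in the sources used here, so the level of Cfb is less certain than its difference between libraries.

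C3ar1, from 122847138 to 122856161 on chromosome 6, encodes the receptor for C3a. Its level was 1137 and 1379.7 CPM in Cd163-/- macrophages, against 710.2 and 501 CPM in wild-type macrophages, with no overlap. The log2 fold change was 1.05 (SE 0.23; edgeR's quasi-likelihood test, adjusted p = 0.0227). It was lost without Cd163-/- replicate 1 or 2, at adjusted p = 0.103 and 0.134 (edgeR's quasi-likelihood test). C5ar1, from 16246743 to 16259540 on chromosome 7, encodes the main receptor for C5a. It was at 516 and 625 CPM in Cd163-/- macrophages, against 819 and 596 CPM in wild-type macrophages. These ranges overlapped, and the log2 fold change of -0.31 (SE 0.21) did not pass the test (edgeR's quasi-likelihood test, adjusted p = 0.314).

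Cfp, from 20925454 to 20931555 on chromosome X, encodes properdin, which stabilises the alternative convertase. It was at 314 and 343 CPM in Cd163-/- macrophages, against 330 and 322 CPM in wild-type macrophages. As a ratio of highest to lowest, this is the tightest set of values in the group. C4b, from 34728380 to 34743882 on chromosome 17, encodes complement C4. It was at 9.36 and 12.0 CPM in Cd163-/- macrophages, against 8.66 and 11.4 CPM in wild-type macrophages. The groups overlapped for both genes. The log2 fold changes of Cfp (0.01, SE 0.13) and C4b (0.10, SE 0.22) did not pass the test (edgeR's quasi-likelihood test, adjusted p = 0.96 and 0.778). C4b has a close copy, C4a, with 10 and 4 counts in Cd163-/- and 8 and 7 in wild-type macrophages, and reads of the pair can be divided between them.

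**Figure D1:**
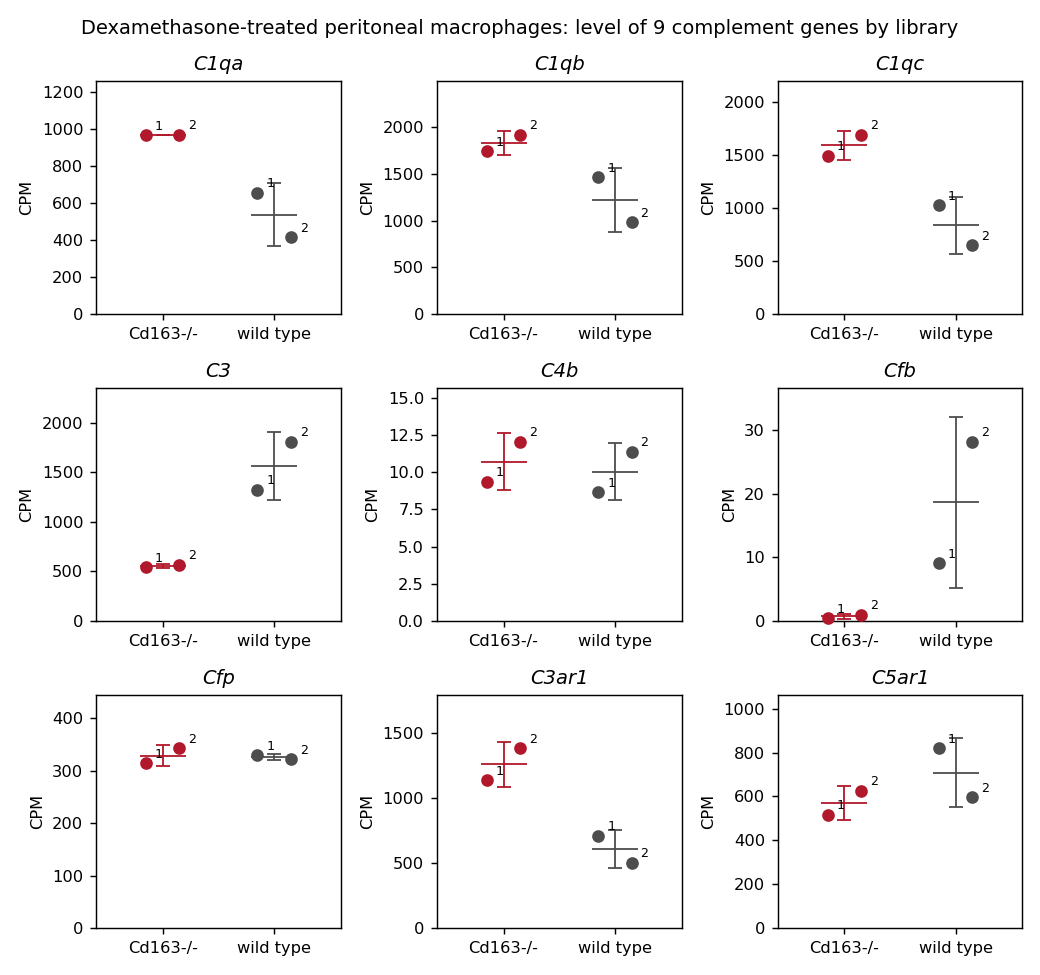
Level of each of the 9 genes in CPM (linear axis from 0) in Cd163-/- and wild-type macrophages; points are libraries with their replicate numbers, and the bars give the mean and SD (n = 2 each). C1qa, C1qc and C3ar1 are higher and C3 and Cfb lower in both Cd163-/- libraries, and the 2 groups overlap for C4b, Cfp and C5ar1.

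Marker genes of other cell types moved in the same cultures. Of 6 mesothelial markers tested, 4 rose (Upk3b, Wt1, Lrrn4 and Upk1b) and 0 fell in Cd163-/- macrophages. The list summed to 293 to 370.4 CPM in Cd163-/-, against 94.4 to 146 CPM in wild-type macrophages. Of 5 tested fibroblast markers 2 rose (Lum and Col1a1) and 1 fell (Pdgfra). The fibroblast list summed to 1640.2 to 1865 CPM in Cd163-/-, against 928 to 1422 CPM in wild-type macrophages. Both tested neutrophil-associated genes, S100a8 and Csf3r, fell, and the list summed to 49.6 to 97.9 CPM in Cd163-/-, against 166 to 328 CPM in wild-type macrophages, with the defining genes Retnlg at 0 and Ly6g at 0 to 1 count. Of the 7 macrophage markers 0 rose and 2 fell, Adgre1 (log2 fold change -0.80) and Cd14 (-3.33), and the summed level was 20622 to 21587 CPM in Cd163-/-, against 24398 to 28612 CPM in wild-type macrophages. The part of these differences in the changes of C1q, C3, Cfb and C3ar1 was not tested, and in bulk samples fewer cells of a type and less RNA per cell cannot be told apart.

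**Figure D2:**
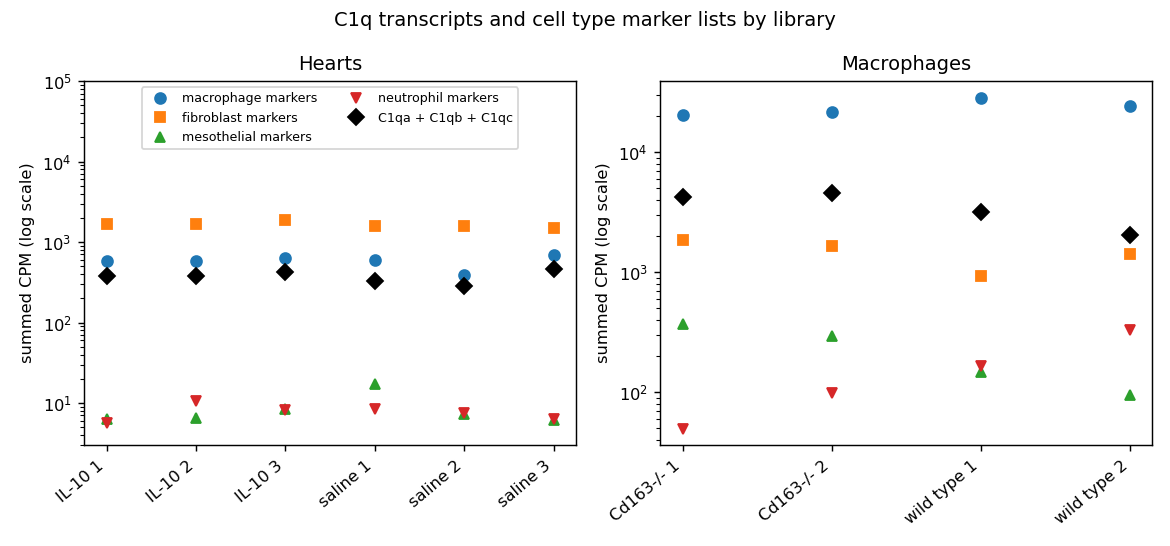
Summed CPM (log axis) of C1qa, C1qb and C1qc and of 4 cell type marker lists in each heart and macrophage library, one symbol per list. In macrophages the summed mesothelial markers are 293 to 370.4 CPM in Cd163-/- and 94.4 to 146 CPM in wild-type libraries, and in hearts saline replicate 2 is lowest for both C1q and the macrophage markers.

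In the hearts none of the 8 genes tested was called, where 13.6% of 13718 genes tested were called, 6.86% higher and 6.7% lower after IL-10 (edgeR's quasi-likelihood test). Higher genes made up 50.6% of all calls, but 39% with upper-quartile scaling and 35.7% with library size alone. DESeq2 and limma-voom also called 0 of the 8, and 1 of them, Cfp, had an unadjusted p under 0.05, as did 28.3% of all genes tested. The comparison addressed the effect of interleukin-10 in hearts labelled Cd163-/-. The median log2 fold change over the 8 genes was 0.13, against -0.01 over all genes tested. Cfb was below the count filter. The groups did not overlap for 1 of the 8 tested genes, where 31.6% of all genes tested had groups that did not overlap.

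The C1q genes were close between the heart groups. C1qa was at 113, 114 and 137 CPM in IL-10 hearts, against 100.3, 90.2 and 147 CPM in saline hearts. C1qb was at 127, 136 and 148 CPM in IL-10 hearts, against 116, 94.6 and 161 CPM in saline hearts. C1qc was at 132, 133 and 142 CPM in IL-10 hearts, against 115, 101 and 154 CPM in saline hearts. For all 3 genes the saline hearts held both the lowest library, replicate 2, and the highest, replicate 3, with the IL-10 hearts between them. The log2 fold changes were 0.11 (SE 0.15), 0.14 (SE 0.15) and 0.14 (SE 0.14), at adjusted p from 0.545 to 0.686 (edgeR's quasi-likelihood test). Without saline replicate 2 the estimates were -0.02 for C1qa, -0.02 for C1qb and 0.02 for C1qc, and without saline replicate 3 they were 0.36, 0.38 and 0.34 (adjusted p = 0.103, 0.0847 and 0.104, edgeR's quasi-likelihood test).

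Macrophage markers in the same hearts had the same low library. Of 7 tested, 0 rose and 1 fell, Cd68 (log2 fold change -0.61; edgeR's quasi-likelihood test, adjusted p = 0.0474), and their summed level was 574 to 625 CPM in IL-10 hearts, against 389 to 684 CPM in saline hearts, lowest in replicate 2 and highest in replicate 3. Set against the mean log2 level of those markers in each heart, C1qa was at 2.09, 1.95 and 2.00 log2 units in IL-10 hearts, against 1.48, 1.97 and 1.93 in saline hearts. C1qb was at 2.26, 2.197 and 2.11 in IL-10 hearts, against 1.69, 2.04 and 2.06 in saline hearts. C1qc was at 2.31, 2.17 and 2.05 in IL-10 hearts, against 1.67, 2.14 and 2.00 in saline hearts. On this scale the groups overlapped for C1qa and C1qc and were narrowly apart for C1qb, with saline replicate 1 lowest for all 3 genes; no test was run on it.

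Properdin and the C3a receptor gene had the lowest estimates among the tested genes in IL-10 hearts. Cfp was at 14.9, 16.2 and 16.3 CPM in IL-10 hearts, against 23.0, 16.4 and 28.0 CPM in saline hearts. All IL-10 hearts lay below all saline hearts, although saline replicate 2 was almost level with them. The log2 fold change was -0.51 (SE 0.17), just outside the threshold (edgeR's quasi-likelihood test, adjusted p = 0.0516). It passed without saline replicate 2 (-0.69, adjusted p = 0.0056, edgeR's quasi-likelihood test), as well as under 4 other settings of scaling or filter (adjusted p from 0.00915 to 0.0492). It did not pass with DESeq2 size factors (adjusted p = 0.0528, edgeR's quasi-likelihood test), DESeq2's Wald test (0.0539) or limma-voom (0.0769). Without saline replicate 3 the estimate shrank to -0.31 (adjusted p = 0.279, edgeR's quasi-likelihood test), and removing any other single heart also gave no call. C3ar1 was at 18.0, 20.8 and 27.7 CPM in IL-10 hearts, against 34.7, 19.2 and 34.4 CPM in saline hearts, where replicate 2 again lay among the IL-10 values. Its log2 fold change of -0.41 (SE 0.20) did not pass the test (adjusted p = 0.184) but did without saline replicate 2 (-0.64, adjusted p = 0.0143, both edgeR's quasi-likelihood test). The estimate shrank to -0.28 without saline replicate 1 or 3 and to -0.27 without IL-10 replicate 1 (adjusted p from 0.467 to 0.489, edgeR's quasi-likelihood test). Removing any heart other than saline replicate 2 gave no call. Relative to the mean log2 level of the macrophage markers, Cfp was at -0.84, -0.87 and -1.07 log2 units in IL-10 hearts, against -0.65, -0.49 and -0.46 in saline hearts. C3ar1 was at -0.57, -0.51 and -0.31 in IL-10 hearts, against -0.05, -0.26 and -0.16 in saline hearts. Neither gene's groups overlapped on this scale, on which 3 hearts against 3 cannot give an exact permutation p below 0.1.

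C5ar1 was at 16.3, 18.0 and 24.7 CPM in IL-10 hearts, against 22.7, 11.0 and 19.8 CPM in saline hearts, with the groups mixed. Its log2 fold change was 0.14 (SE 0.21; edgeR's quasi-likelihood test, adjusted p = 0.711). C3 was at 119, 122 and 214 CPM in IL-10 hearts, against 134, 152 and 122 CPM in saline hearts. The highest value was that of IL-10 replicate 3 alone, and without it the log2 fold change of 0.16 (SE 0.18; edgeR's quasi-likelihood test, adjusted p = 0.611) became -0.16. C4b was at 22.1, 17.6 and 27.7 CPM in IL-10 hearts, against 23.9, 22.7 and 26.9 CPM in saline hearts (log2 fold change -0.12, SE 0.15; edgeR's quasi-likelihood test, adjusted p = 0.634). The hepatocyte markers Apoa1, Fgb and Serpina1a had 0 counts in every heart, and the 6 hepatocyte markers together reached 0.827 to 1.61 CPM in IL-10 hearts, against 0.128 to 0.51 CPM in saline hearts, although the extraction protocol in the labels names livers. The difference lay in Ttr, at 0.971 CPM after IL-10 and 0.164 CPM after saline, the only one of the 6 tested and called.

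Cfb was barely detected in the hearts. It had 0, 1 and 0 counts in IL-10 hearts, against 4, 3 and 8 counts in saline hearts, and 3 counts, taken as the limit of detection, equal 0.192 to 0.22 CPM here. Every saline heart was at or above 3 counts and every IL-10 heart below. The ratio of summed levels, IL-10 over saline, was 0.0677, with a 95% interval of 0.00161 to 0.44 that covers counting error only and not the spread between heart libraries. Fitted without the count filter, the log2 fold change was -3.44 (SE 1.42) and did not pass the test (edgeR's quasi-likelihood test, adjusted p = 0.123).

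**Figure D3:**
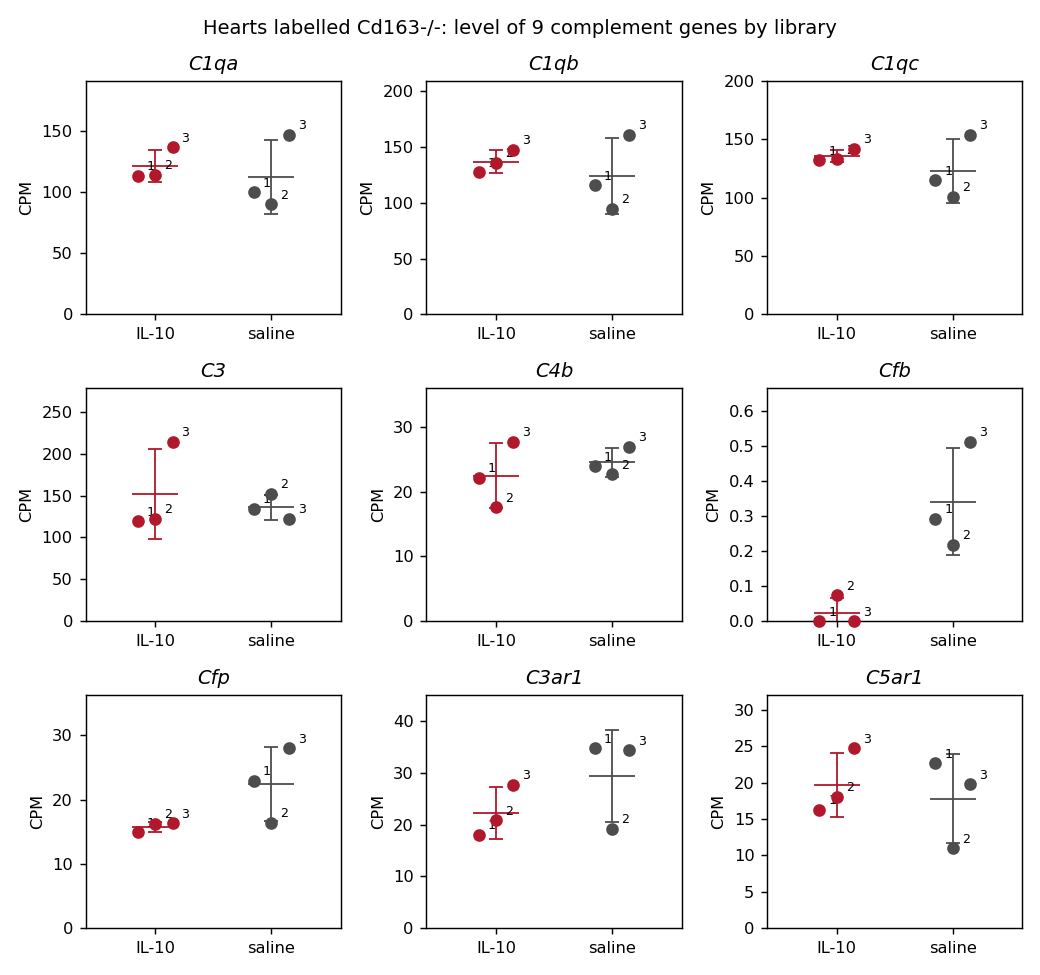
Level of each of the 9 genes in CPM (linear axis from 0) in IL-10 and saline hearts, all labelled Cd163-/-; points are hearts with their replicate numbers, and the bars give the mean and SD (n = 3 each). Among tested genes the groups are apart only for Cfp, and saline replicate 2 is the lowest saline heart for all genes but C3.

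The comparisons of hearts and of macrophages share no library. C1qa, C1qc and C3ar1, called higher in Cd163-/- macrophages (log2 fold changes 0.85, 0.92 and 1.05), had log2 fold changes of 0.11, 0.14 and -0.41 in IL-10 hearts, none of them called. C3 had log2 fold changes of -1.50 in the macrophage comparison and 0.16 in the heart comparison. Cfb was the one gene of the group with lower levels in both IL-10 hearts and Cd163-/- macrophages and no overlap in either, though it was not tested in hearts. There it had only 0, 1 and 0 counts after IL-10, against 4, 3 and 8 counts after saline. Groups did not overlap for 31.6% of all genes tested in hearts and 69.4% of those tested in macrophages, and the shared direction of Cfb was not tested.

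**Figure D4:**
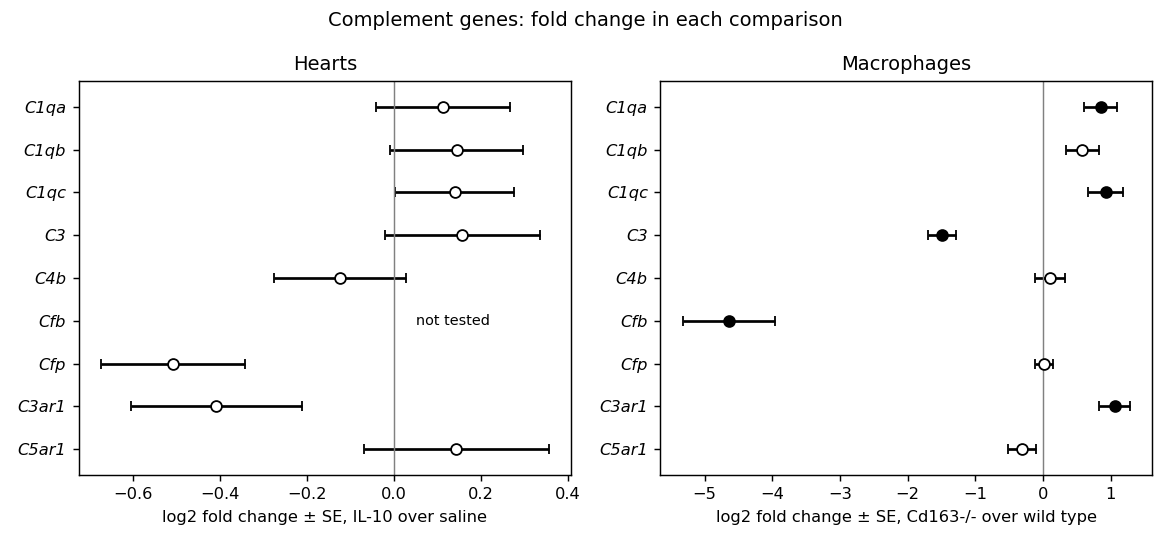
Log2 fold change and its standard error for the 9 genes, IL-10 over saline in hearts (left) and Cd163-/- over wild type in macrophages (right); filled symbols passed the test at an adjusted p under 0.05. No heart symbol is filled, and in macrophages C1qa, C1qc and C3ar1 are filled above 0 and C3 and Cfb below 0.

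A further 43 genes of the complement system were read for context. In hearts 23 were tested, of which 3 rose and 2 fell, where 6.86% of all genes tested were called higher and 6.7% lower, and the median log2 fold change was 0.15. The rises were those of the terminal component C7 (16.5 ± 2.90 CPM after IL-10 and 6.81 ± 1.52 CPM after saline, log2 fold change 1.28), the C1s protease gene C1s1 (0.59) and the membrane inhibitor of lysis Cd59a (0.39). The falls were Clu, clusterin, a fluid-phase inhibitor of the terminal complex (606 ± 31.2 CPM after IL-10 and 1267 ± 385 CPM after saline, log2 fold change -1.06), and Cd93, a receptor first described as binding C1q (-0.59). SDs are over 3 libraries each, and adjusted p ran from 0.000372 for C7 to 0.0207 for Cd59a (edgeR's quasi-likelihood test). The Cd59a call was lost without IL-10 replicate 2, saline replicate 1 or saline replicate 3 (adjusted p from 0.0534 to 0.0988, edgeR's quasi-likelihood test). In the same hearts the 5 cardiomyocyte markers summed to 20995 to 24859 CPM after IL-10 and 26419 to 32745 CPM after saline, with 1 of 5 called, lower (Actc1), and the 6 fibroblast markers to 1659 to 1880.4 CPM after IL-10 and 1512 to 1582 CPM after saline, with 1 called higher (Dcn) and 2 lower (Col1a1 and Pdgfrb). Of 4 endothelial markers 1 was called, lower (Kdr), at a sum of 362 to 442 CPM after IL-10 and 433 to 539.5 CPM after saline. The part of these markers in the differences of C7, Clu and Cd93 was not tested.

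In macrophages 19 of the 43 were tested, of which 2 rose and 2 fell, where 13.1% of all genes tested were called higher and 13.3% lower. So few calls do not set these genes apart from that share. The median log2 fold change of the 19 was -0.03. Cd93 rose to 789 ± 161 CPM in Cd163-/- macrophages, against 183 ± 63.9 CPM in wild-type macrophages (log2 fold change 2.11). C5ar2, the second C5a receptor, rose to 7.72 ± 1.56 CPM in Cd163-/- macrophages, against 1.89 ± 0.43 CPM in wild-type macrophages (log2 fold change 2.02), while C5ar1 did not pass the test. C1s1 fell to 78.1 ± 12.5 CPM in Cd163-/- macrophages, against 163 ± 44.8 CPM in wild-type macrophages (log2 fold change -1.06), and C1qbp, which encodes a multifunctional C1q-binding protein of mitochondria, fell by 0.40 on the log2 scale (adjusted p = 0.0496, n = 2 each; edgeR's quasi-likelihood test). Without Cd163-/- replicate 2 the calls of C1s1, C5ar2 and C1qbp were lost (adjusted p = 0.122, 0.0507 and 0.218), without Cd163-/- replicate 1 those of C1s1 and C1qbp (0.0922 and 0.147), and without either wild-type library that of C1qbp (0.0991 and 0.108, edgeR's quasi-likelihood test). The part of the marker differences of these cultures in the changes of Cd93, C5ar2, C1s1 and C1qbp was not tested. C1s1 and Cd93 were called in both comparisons, in opposite directions. C1s1 was higher in IL-10 hearts and lower in Cd163-/- macrophages, and Cd93 was lower in IL-10 hearts and higher in Cd163-/- macrophages.

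**Figure D5:**
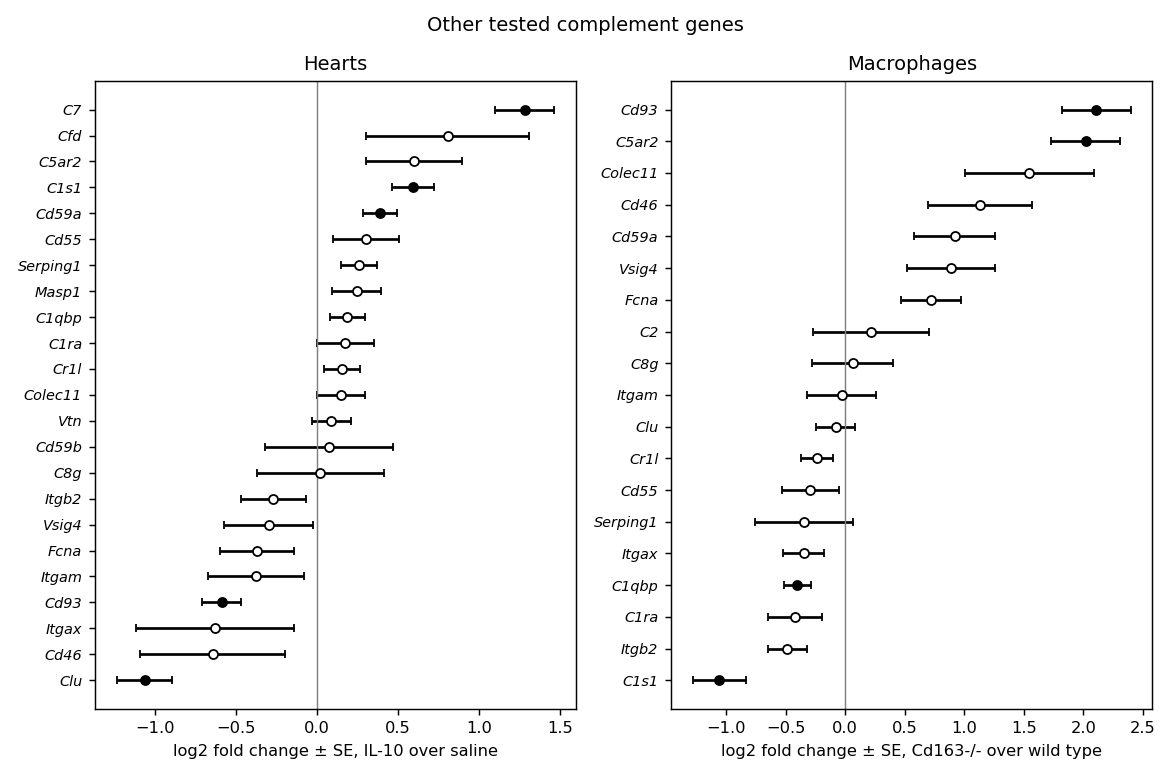
Log2 fold change and its standard error for the 23 other complement genes tested in hearts (left, IL-10 over saline) and the 19 tested in macrophages (right, Cd163-/- over wild type), ordered by size; filled symbols passed the test. C7, C1s1 and Cd59a rose and Clu and Cd93 fell in hearts, and Cd93 and C5ar2 rose and C1s1 and C1qbp fell in macrophages.

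Across the 6 hearts, the genes closest to C1q in pattern were Zfp282, Srebf1 and Itgb5, with root mean square differences of 0.06, 0.07 and 0.07 from the mean C1q profile in centred log2 CPM, against a median of 0.29 over the 9911 genes compared. For C3 they were Shtn1, Prickle2 and Zbtb39 (0.11 each), and for C4b Rnpep, Cic and Prr13 (0.06, 0.06 and 0.07). These are the smallest of 9911 differences over only 6 libraries and describe no more than that.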

How the data were processed

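Libraries came from poly(A) RNA and the NEBNext Ultra RNA kit, per the labels' protocols. HISAT2 (2.2.1) aligned the reads and featureCounts counted them, per the submitters' processing notes, and the authors deposited raw counts per gene as one table for hearts and one for macrophages. The notes list both GRCm39 and mm10, and which one the counts rest on is not given in the sources used here. Of 55357 identifiers, 52081 were named from GENCODE M21 (GRCm38), whose merged exons gave lengths.

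The tables were analysed separately (R 4.3.3). Genes passing filterByExpr (minimum count 10, total 15) were scaled by TMM and compared with the quasi-likelihood test of edgeR 4.0.16, IL-10 over saline or Cd163-/- over wild type, with Benjamini-Hochberg adjustment across every tested gene and calls under 0.05. Standard errors were obtained from the log2 fold change and the F statistic (its size over the root of F). The procedure was also run on simulated counts that lacked each gene's own spread, so that run does not measure its error rates on these data. Alternatives used DESeq2 1.42.0, limma-voom (limma 3.58.1), other scalings and filters, the replicate number as a block, and each library left out. No 2 replicate libraries agreed within sampling noise.

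The genes and lists were chosen with earlier results of these data known. A few complement genes are not reported here. Named were the 9 genes, Cd163, up to 4 called genes per direction with the smallest p among the other complement genes, and the 3 genes of at least 5 CPM closest in pattern in hearts. Genes of the marker lists are named where they were called, at the end of a range or, for some lists, at 0.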

Additional observations from a re-analysis of the deposited data

How the results depend on the processing

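In macrophages, leaving out 1 library gave log2 fold changes of 0.55 to 1.21 for C1qa, 0.32 to 0.90 for C1qb, 0.62 to 1.29 for C1qc, 0.82 to 1.33 for C3ar1, -1.70 to -1.26 for C3 and -5.24 to -3.62 for Cfb. Those of C4b ran from -0.11 to 0.30 (-0.11 without Cd163-/- replicate 2 and -0.09 without wild-type replicate 1), and those of Cfp from -0.064 to 0.073 (-0.064 without Cd163-/- replicate 2 and -0.01 without wild-type replicate 2). The number of the 9 genes called then ran from 0 to 4 higher (3 with all libraries) and 0 to 2 lower (2), of the other complement genes from 1 to 4 higher (2) and 0 to 2 lower (2), and of all genes from 360 to 1838 higher (1817) and 374 to 1973 lower (1846). Removing a library also removes residual degrees of freedom.

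In hearts the same procedure gave -0.023 to 0.36 for C1qa and -0.016 to 0.38 for C1qb (negative without saline replicate 2), 0.016 to 0.34 for C1qc, -0.16 to 0.31 for C3 (negative without IL-10 replicate 3), -0.29 to 0.025 for C4b (positive without IL-10 replicate 2), -0.11 to 0.35 for C5ar1 (-0.04 without IL-10 replicate 3 and -0.11 without saline replicate 2), -0.64 to -0.27 for C3ar1 and -0.69 to -0.31 for Cfp. Among tested complement genes 0 to 2 of the 8 were then called lower (0 with all hearts), and of all genes 450 to 1082 were called higher (941) and 447 to 1012 lower (919).

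Cfp in hearts was called with upper-quartile scaling (-0.56), library size alone (-0.58), no count filter (-0.50) and a filter of 1 CPM (-0.51), so that 1 of the 8 genes was called lower, and 2 without a filter, where C3ar1 also passed (-0.41). With library size alone 551 genes were called higher in hearts and 1220 lower in macrophages. In macrophages C1qb was called without a filter (0.57), and the other complement genes called were then 5 higher and 4 lower. Of these, 1 was called lower with upper-quartile scaling, library size alone, a filter of 1 CPM, limma-voom and the replicate block. The cause of these shifts was not tested.

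Same-numbered libraries did not deviate together (correlations of -0.18, 0.04 and 0.00 in hearts and -0.11 in macrophages). With the replicate block 0 of the 9 genes were called higher in macrophages (C1qa 0.89, C1qc 0.96, C3ar1 1.07). A crossed pairing, added after seeing the data, called C1qb (0.61) and 4 of the other complement genes higher. With 2 libraries a group, its correlation (0.11) must be the opposite of the same-numbered one (-0.11). These calls therefore add no separate evidence. In all, 184 recomputed values in hearts and 168 in macrophages kept direction and side of the threshold or, for counts, lay within 1.5 times. In hearts 13 counts moved further, 6 values reversed and 7 passed the threshold newly; in macrophages 23 counts moved further, 4 values reversed, 12 lost the call and 3 gained one. At these depths a gene needs 3 counts, 0.149 to 0.22 CPM, to be told from 0.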

Other observations

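Of the 43 other complement genes, 8 had 0 counts in every heart: C1s2, Mbl1, Fcnb, C8a, C8b, C9, C4bp and Cd55b. In the macrophages 8 had 0 counts in every library: Mbl1, Mbl2, Fcnb, Colec10, C6, C8a, C8b and Cpn2. A count of 0 allows up to 3 counts per library, 0.192 to 0.22 CPM in hearts and 0.149 to 0.19 CPM in macrophages, and covers counting error only. Hc, which encodes C5, the source of the C5a that C5ar1 binds, had 1, 0 and 0 counts in IL-10 hearts, against 0, 0 and 1 counts in saline hearts, and 1 and 0 counts in Cd163-/- macrophages, against 0 and 2 counts in wild-type macrophages. C2, the partner of C4 in the classical convertase, had 10, 5 and 3 counts in IL-10 hearts, against 18, 3 and 5 counts in saline hearts, with the groups overlapping. In the annotation 42.8% of the exon bases of C2 are shared with Gm20547, so the level of C2 is uncertain in the same way as that of Cfb.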
